A study of Rattus norvegicus with 4 samples.

Results

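The cytosolic ribosomal protein genes were followed across 4 mammary cancers of female Sprague-Dawley rats, an outbred stock. Members were the probe sets annotated to a single gene whose symbol begins with Rpl or Rps and a digit, or is that of a stalk protein of the Rplp series, without the ribosomal S6 kinases. The rule found 54 probe sets for 49 genes, of 31099 probe sets and 14217 named genes on the array. By their names, 28 encoded core proteins of the large subunit, 12 core proteins of the small subunit and 1 a stalk protein, while 6 were paralogs and 2 were transcribed pseudogenes. All 4 tumours formed 1 group. They came from rats given one whole-body carbon-ion exposure of 0.5 Gy (290 MeV/u) at 7 weeks and fed a diet with 23.5% corn oil once past 9 weeks of age. The labels do not say whether each tumour came from a different rat, and unirradiated tumours and normal gland are not analysed here. With 1 array per tumour and no second group, differences are described by their size, and no p-value is given.

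A ribosome joins a small subunit, which reads the messenger RNA, to a large subunit, which forms the peptide bond, and each holds ribosomal RNA and a set of proteins needed in equal number. In mammals many ribosomal protein messengers begin with a C followed by a run of pyrimidines, the 5' terminal oligopyrimidine (TOP) tract, through which the mTOR pathway and the RNA-binding protein Larp1 adjust their translation. Mammary epithelium that grows or secretes milk makes heavy use of ribosomes. Ribosomal proteins are also among the most abundant messengers of most cells, and they have many processed pseudogenes, so short probes may read several copies.

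The symbol rule did not use the sequence around the transcript start, where a TOP tract would stand. RefSeq start regions (assembly GRCr8) were at hand for 42 of the 49 genes. In 12 of the 42 (28.6%) the annotated start was a C followed by at least 4 bases that are each C or T, read on the coding strand, against 2.63% of all 33469 start regions in the table. The start was taken as the table gives it, and in 17 of the 42 it was not the outer end of the gene in the same assembly, so a run at another start would be missed. Such a run began within 5 bases of the start in 52.4% of the members and 17.0% of all regions. The hexamer CCGGAA, the core recognised by ETS factors such as GABP, occurred on either strand of the 300-base region in 38.1% of the members and 15% of all regions. The following windows hold 15 bases on each side of the annotated start, 5′ to 3′ on the coding strand, with the pyrimidine run in capitals where it stands at the start. The first 5 show the run in 4 members of the shared pattern and in Rpl35a. The last 3 show members without it, which were still lowest in tumour 1 and highest in tumour 3. Rpl35a, with the run, and these 3 without it were all among the 10 members that differed most from the family in size. Members without the run that kept close to the family, such as Rps23 and Rpl11, are not shown.
Rpl19 (chr10:83519049-83519078, plus strand): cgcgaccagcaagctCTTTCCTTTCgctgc
Rplp0 (chr12:46718376-46718405, minus strand): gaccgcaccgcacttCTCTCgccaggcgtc
Rpl37a (chr9:81748076-81748105, plus strand): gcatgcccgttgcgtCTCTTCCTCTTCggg
Rps15 (chr7:10068101-10068130, minus strand): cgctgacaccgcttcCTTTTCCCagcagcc
Rpl35a (chr11:81235007-81235036, minus strand): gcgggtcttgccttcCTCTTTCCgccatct
Rpl21 (chr12:13386139-13386168, minus strand): ttcctttccgccggggcagccatcttccag
Rpl24 (chr11:58128391-58128420, minus strand): gaatttagggaggagattctctaccctata
Rps27l (chr8:76443643-76443672, plus strand): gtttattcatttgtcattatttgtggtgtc
The 11 expressed members with the run at the start had a median standard deviation (SD) between tumours of 0.26 log2, and the 27 expressed members without it one of 0.28. Their median differences from their own means were -0.30 in tumour 1 for both sets, and 0.33 with the run and 0.35 without it in tumour 3.

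Signals are given as log2(value + 16) after the 4 arrays were aligned on their medians, called the median shift, unless stated otherwise. A signal describes 1 probe set, so it ranks tumours for a gene and does not rank genes by transcript number. Of the 49 genes, 42 reached the expression filter, a mean of 7.81 log2 or a signal of about 209, which 9403 of the 14217 genes reached. The members fell into 3 ranges of brightness. A set of 37 lay at 13 log2 or above, near the top of the array. Another 5 lay between 7.91 and 11.23, namely Rpl7l1, Rpl39, Rps27l, Rps13 and Rpl26l1. The remaining 7, Rpl28, Rpl30, Rps4y2, Rpl37-ps2, Rpl39l1, Rpl3l and Rps4x-ps1, were under the filter at 6.78 or less. Of the 100 brightest probe sets of all, 30 were members, and a further 17 named several genes that were all ribosomal protein genes or copies of them.

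**Figure D1:**
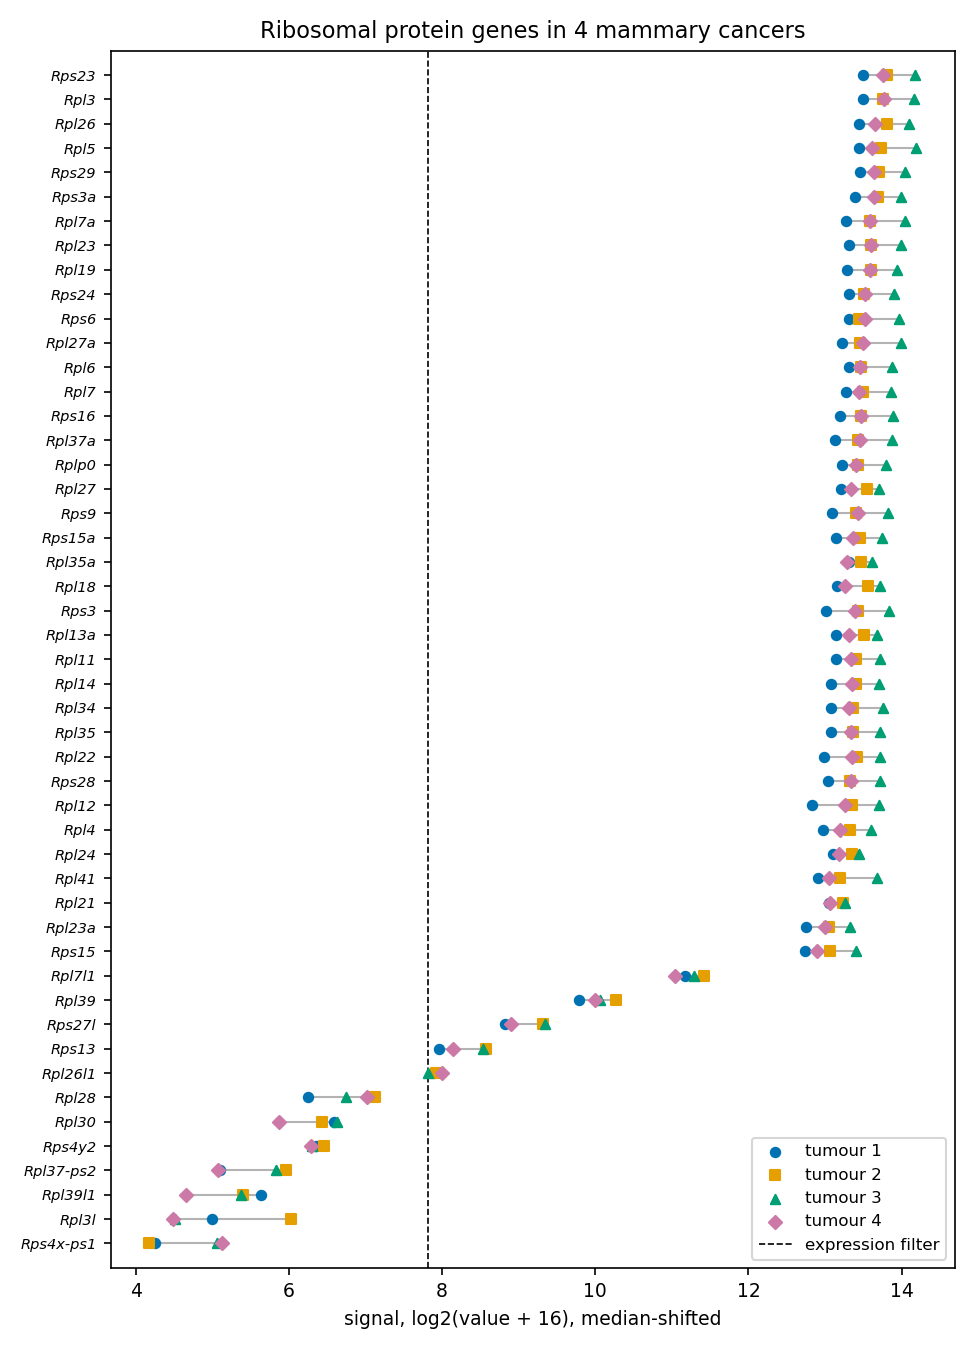
Signal of the 49 ribosomal protein genes on the brightest probe set of each, log2(value + 16) after the median shift, with 1 point per tumour and the genes sorted by mean. In 36 of the 37 genes at 13 log2 or above, tumour 1 is lowest and tumour 3 highest, and the dashed line is the expression filter at 7.81.

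The bright ribosomal protein genes ordered the 4 cancers almost identically. Tumour 1 was lowest in 39 of the 42 expressed members, against 44.0% of all expressed genes, and tumour 3 was highest in 38, against 33.2%. Both held in 37 members, of which 36 were among the 37 bright ones, while 20.4% of all expressed genes showed both. Tumours 2 and 4 lay between, in the order 1, 4, 2, 3 in 29 members and 1, 2, 4, 3 in 8.

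The stalk protein Rplp0, which carries the site where elongation factors bind, measured 13.23, 13.43, 13.79 and 13.40 log2 in tumours 1 to 4, from deposited signals of 10016, 10623, 13593 and 11154. Rps6, the small-subunit protein phosphorylated by the S6 kinases, measured 13.31, 13.44, 13.96 and 13.52. Tumour 3 stood above the rest in both genes. Rpl5, which with Rpl11 and 5S RNA can bind Mdm2 and so stabilise p53, measured 13.44, 13.73, 14.19 and 13.61. Rpl11 followed the same order at 13.14, 13.41, 13.72 and 13.33. Rps23, a protein of the decoding centre and the brightest member on average, measured 13.50, 13.81, 14.18 and 13.76, and Rpl3, which lies near the peptidyl transferase centre, measured 13.50, 13.75, 14.16 and 13.77. The bright members Rpl26 and Rps29, and the anchor genes Rpl13a and Rpl22, were likewise lowest in tumour 1 and highest in tumour 3, with ranges of 0.66, 0.59, 0.54 and 0.72 log2.

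Across the 42 expressed members, the median difference from a member's own mean was -0.29, 0.01, 0.34 and -0.06 log2 in tumours 1 to 4. Over all expressed genes it was -0.10, 0.08, 0.08 and -0.06. Set against the mean of the other 3 tumours, the family lay at -0.39 in tumour 1 and 0.45 in tumour 3, and the median offset of tumour 3 exceeded that of tumour 1 by 0.63 log2, or 1.55-fold. All 42 members lay below the average of the remaining tumours in tumour 1, and 41 lay above it in tumour 3, with Rpl26l1 as the exception. Among all 9403 expressed genes, 6042 lay below it in tumour 1 and 6249 above it in tumour 3. The spread was nevertheless small for single genes. The median SD was 0.26 log2 in the family and 0.23 in all expressed genes. No expressed member had a range of 1 log2, whereas 1224 of the 9403 expressed genes (13%) did. Large and small subunits moved by like amounts, with medians of -0.30 and 0.34 in tumours 1 and 3 for 26 large-subunit genes and of -0.30 and 0.36 for 12 small-subunit genes.

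The family moved as 1 block. The squared deviations of members from their own means were split into 1 offset per tumour common to all members and the rest. The common offset took 85.6% in the expressed members and 93.3% in the 37 bright ones, against 5.14% over all expressed genes. It also took 70.2% in the 44 other genes at 13 log2 or above and 87.1% in 18 unnamed probe sets of that brightness. After the family median of each tumour was removed, the median SD of a member was 0.054 log2, against 0.21 for all expressed genes treated alike. In 27 of the 37 bright members, every residual lay within 0.1 log2 of the family.

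How far this block followed the scaling of the arrays was then examined with 3 scalings. On values as deposited, which already shared a trimmed mean of 500.1 per array, the family offsets were -0.23, -0.04, 0.28 and -0.01 log2 in tumours 1 to 4. The difference between the offsets of tumours 3 and 1 was then 1.42-fold, and the common offset took 78.1% of the spread. Quantile normalization, which gives every array the same distribution of values, left offsets of -0.027, 0.013, 0.0040 and 0.0048. The difference was 1.02-fold, the common offset took 9.39%, and the median SD was 0.058. The number of members lowest in tumour 1 and highest in tumour 3 was 36 as deposited, 37 after the median shift and 9 after quantile normalization. The median residual SD was 0.054 log2 after the median shift and 0.053 after quantile normalization. Residuals as deposited equal those after the median shift by construction, since both differ by 1 constant per array.

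**Figure D2:**
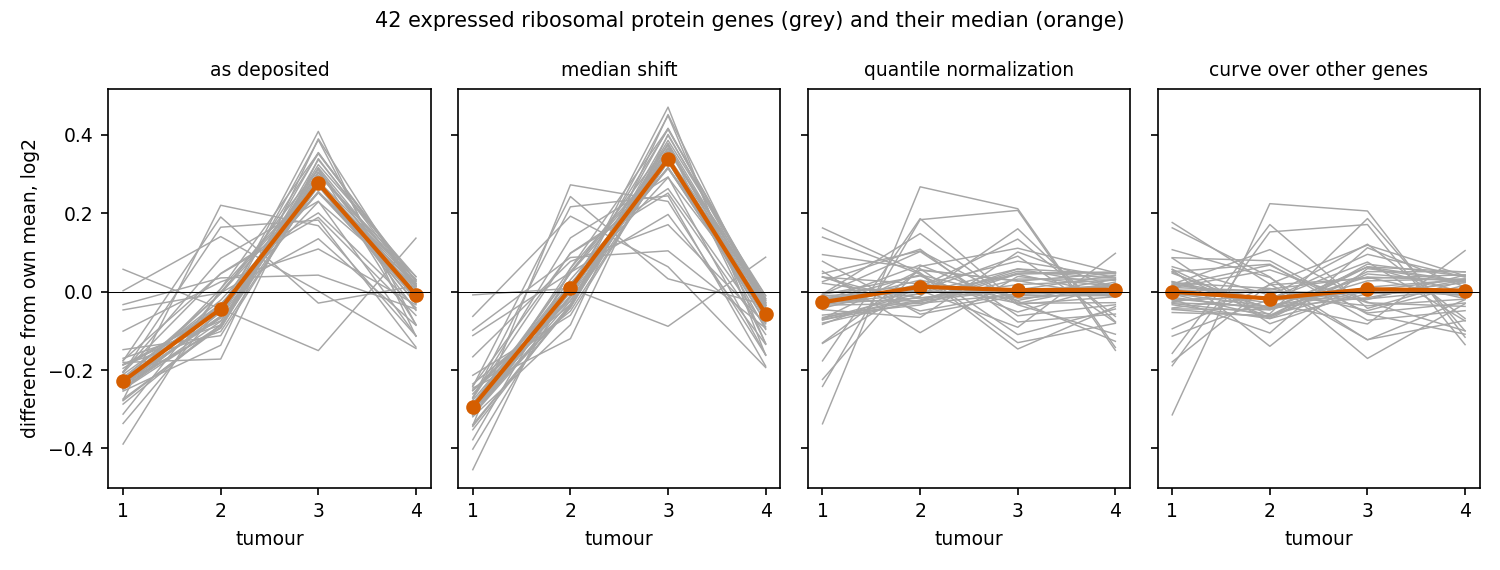
Difference of each of the 42 expressed ribosomal protein genes from its own mean over the 4 tumours (grey lines) and their median (orange), in log2, under 4 treatments of the arrays. The median runs between -0.29 in tumour 1 and 0.34 in tumour 3 after the median shift and stays within 0.03 of zero after quantile normalization or after a curve over the other genes was removed.

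Other genes of the same brightness carried nearly the same offsets. The 37 bright members had medians of -0.30, -0.00024, 0.34 and -0.05 log2 in tumours 1 to 4, and the 44 other expressed genes at 13 log2 or above had -0.28, 0.04, 0.31 and -0.06. Among those 44, tumour 1 was lowest in 35 and tumour 3 highest in 40. The 44 were not a set apart from the ribosome. They included the ribosomal protein Rpsa and the translation genes Eef1a1, Eef1b2, Eef1g, Eef2, Rack1 and Naca. Luminal and milk genes such as Krt8 and Csn3 were among them too. Below 13 log2 the offsets of other genes shrank with brightness in tumours 1 and 3. They were -0.21 and 0.18 for 382 genes between 12 and 13, -0.15 and 0.13 for 1029 genes between 11 and 12, and -0.03 and 0.03 for 2688 genes between the filter and 9. The same pattern stood in 18 unnamed probe sets at 13 log2 or above, with -0.28 in tumour 1 and 0.35 in tumour 3. Whether these probe sets read copies of ribosomal protein genes was not tested. When a smooth curve of deviation on brightness, fitted for each array over the other expressed genes, was subtracted from the members, the family offsets became -4.5e-05, -0.018, 0.0064 and 0.0029, and the common offset took 1.92% of the spread. Only 4 members were then lowest in tumour 1 and highest in tumour 3. The brightness class of 13 log2, the unnamed probe sets and this curve were added after the values had been seen.

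**Figure D3:**
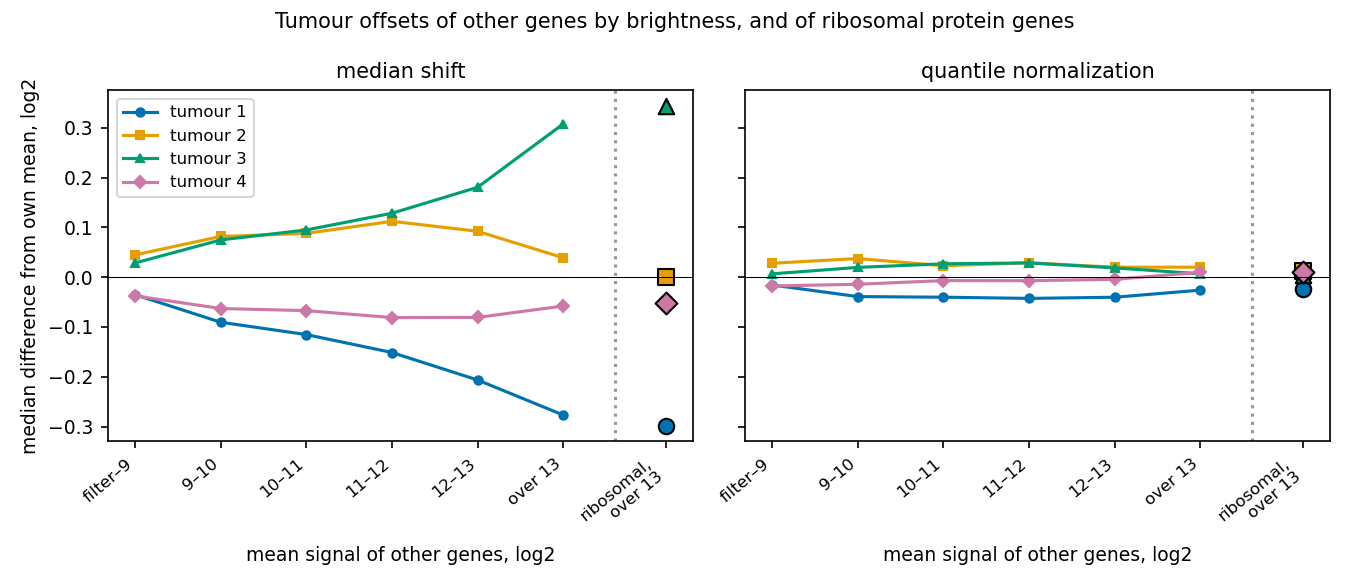
Median difference from a gene's own mean, in log2, for other expressed genes in 6 classes of mean signal (lines) and for the 37 bright ribosomal protein genes (large symbols at the right), by tumour. After the median shift the lines of tumours 1 and 3 part with brightness, to -0.28 and 0.31 at 13 log2 or above, and the ribosomal protein genes lie at -0.30 and 0.34; after quantile normalization all lie near zero.

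The upper ends of the arrays differed in the same direction. The highest deposited signal was 12739, 13966, 17928 and 14406 in tumours 1 to 4, read by probe sets naming several genes in tumours 1 and 2, by Rpl5 in tumour 3 and by Rpl3 in tumour 4. Bacterial and phage control transcripts, which in this array design are added to the hybridisation mix and do not come from the tumour, were also highest on the array of tumour 3. This held for 13 of 14 such probe sets above the filter, although 13 of them were lowest in tumour 4 and 1 in tumour 1. The median offsets of the 14 were -0.08, 0.19, 0.40 and -0.61 log2, where the family had -0.29, 0.01, 0.34 and -0.06. A link between these controls and the family offsets was not tested. The Cre control of the 3' end measured 12.51, 12.88, 13.23 and 12.17 log2. Control probe sets of rat beta-actin at the 3' end measured 13.42, 13.65, 14.04 and 13.65, whereas those of rat GAPDH, at a like brightness, spanned only 13.09, 13.15, 13.27 and 13.24. The log2 ratio of 3' over 5' signal of beta-actin was 0.30, 0.30, 0.48 and 0.30.

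Of the cell-type marker lists, the luminal one followed the order of the family in its summed signal after the median shift. The summed signal of 10 luminal epithelial markers, 9 of them expressed, was 14.85, 15.87, 16.11 and 15.78 log2. All 9 expressed ones were lowest in tumour 1 and 6 were highest in tumour 3, against 44.0% and 33.2% of all expressed genes. Another 2 were highest in tumour 2 and 1 in tumour 4. The median level of the 9 was 12.31 log2. Of the 382 expressed genes outside the family between 12 and 13 log2, 63.9% were lowest in tumour 1 and 66.0% highest in tumour 3. The keratin Krt18 measured 11.90, 12.95, 13.36 and 12.90. After quantile normalization the 9 expressed luminal genes had median offsets of -0.50, 0.14, 0.14 and 0.24, so tumour 4 was then highest. The ribosomal family lay at -0.027 in tumour 1 under that scaling. The macrophage markers ran against the family, with a summed signal of 13.73, 12.94, 11.96 and 12.81 for 7 genes, of which 6 were expressed. The summed signal of the 8 basal markers was also lowest in tumour 3, at 15.06, 14.88, 14.51 and 15.04, with tumours 1 and 4 nearly equal. Single basal genes differed. Of the 8, 4 were highest in tumour 1 and 3 in tumour 4, while 5 were lowest in tumour 3 and 2 in tumour 1. The 6 fibroblast markers summed to 15.14, 14.90, 15.14 and 13.49, and all 6 were lowest in tumour 4. In the other tumours they differed, with 3 highest in tumour 1 and 3 in tumour 3. Lum, for 1, fell through tumours 1 to 4, at 12.89, 12.46, 11.83 and 11.30. The 5 milk genes summed to 15.61, 15.64, 15.99 and 14.98. Adipocyte, T-cell, B-lineage and red blood cell lists had 1 expressed marker each, and 3 of 4 endothelial markers were expressed, with sums between 10.01 and 10.87. No listed marker read 0 in any tumour, although Lep, Itgam and Cd79b stayed between 4.29 and 5.30 throughout. The part of cell composition in the family offsets was not tested, and in bulk tissue fewer cells of a type and less RNA per cell cannot be told apart.

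No member left the family by 0.5 log2 in any tumour, a distance that 17.8% of all expressed genes reached from the median of all genes, and none left it by 1 log2, against 4.14%. This was not particular to the family: around their own medians, 0 of 73 mitochondrial ribosomal genes, 0 of 30 translation factors and 1 of the 44 other bright genes departed by 0.5 log2. The largest residuals belonged mostly to the dimmer members. Rpl26l1, a paralog of Rpl26, had nearly the same signal in all tumours, 7.90, 7.92, 7.82 and 8.00 log2, and so a residual of -0.43 in tumour 3. Rpl7l1, a paralog of Rpl7, was highest in tumour 2, at 11.17, 11.42, 11.29 and 11.04. Rpl39, a small protein of the exit tunnel, was also highest in tumour 2, at 9.78, 10.27, 10.06 and 9.99. In tumour 3 the residual of Rpl7l1 was -0.28 after the median shift and -0.028 after quantile normalization, and that of Rpl39 was -0.31 and -0.034. The peak in tumour 2 remained in both after quantile normalization, with residuals of 0.092 for Rpl7l1 and 0.17 for Rpl39, against 0.18 and 0.23 after the median shift.

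The residuals of Rps13 and Rps27l turned with the scaling in tumour 3. Rps13, a small-subunit protein, measured 7.96, 8.57, 8.53 and 8.14 log2. Rps27l, a paralog of Rps27 known as a target of p53, measured 8.82, 9.31, 9.34 and 8.91. Both were low in tumours 1 and 4 and high in tumours 2 and 3. Their residuals in tumour 3 were -0.11 and -0.094 after the median shift and 0.21 and 0.20 after quantile normalization. In tumour 1 they were -0.05 and 0.02 after the median shift and -0.31 and -0.21 after quantile normalization. In tumour 2 they were 0.26 and 0.21 after the median shift and 0.26 and 0.17 after quantile normalization. By residual SD they then stood furthest from the family of all 42 members, at 0.27 and 0.22 log2. With the median shift their residual SD was 0.18 and 0.15, below that of 4 other members.

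Among the bright members, Rpl21, Rpl35a and Rpl24 were flatter than the family, and Rpl12 was steeper. Rpl21, a large-subunit protein, measured 13.05, 13.24, 13.26 and 13.06 log2, from signals of 8887, 9318, 9364 and 8816. Its range of 0.20 log2 compared with a family median of 0.63. Rpl35a measured 13.31, 13.47, 13.62 and 13.29, and was the only bright member whose lowest value was not in tumour 1. Rpl24 measured 13.10, 13.35, 13.44 and 13.19. In tumour 1 these 3 lay above the family by 0.20, 0.18 and 0.13 log2, and in tumour 3 they lay below it by residuals of -0.23, -0.14 and -0.17. Quantile normalization kept the signs, with 0.17, 0.19 and 0.12 in tumour 1 and -0.15, -0.13 and -0.11 in tumour 3. Rpl12, a protein at the base of the stalk, showed the opposite, at 12.83, 13.35, 13.70 and 13.27 log2. Its residual in tumour 1 was -0.16 after the median shift and -0.20 after quantile normalization. Rpl18 lay above the family in tumour 2, with residuals of 0.13 and 0.14 under the same scalings, and below it in tumour 4, with -0.10 and -0.11. With 1 array per tumour these residuals have no replicate check.

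**Figure D4:**
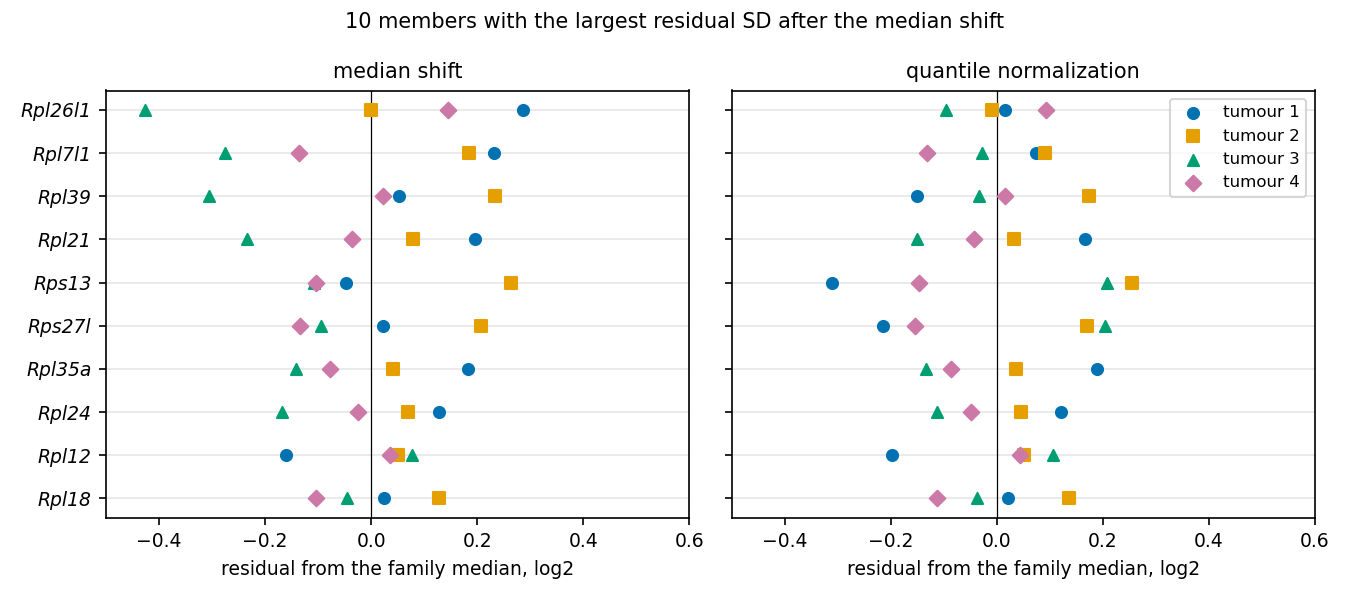
Residual from the family median, in log2, of the 10 expressed members with the largest residual SD after the median shift, with 1 point per tumour, under the median shift (left) and quantile normalization (right). Rpl21, Rpl35a and Rpl24 keep tumour 1 on the right and tumour 3 on the left under both scalings, whereas the points of Rpl26l1 and Rpl7l1 draw together and those of Rps13 and Rps27l change place.

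Second probe sets of a gene seldom shared the pattern. Of 5 genes with 2 probe sets, 1 had the same tumour highest on both, Rpl7l1, whose second probe set measured 10.39, 10.87, 10.73 and 10.48 log2. The second probe set of Rpl3 was dimmer and highest in tumour 4, at 9.47, 10.04, 9.55 and 10.41. That of Rps24 was highest in tumour 2 and lowest in tumour 4, at 10.75, 10.87, 10.57 and 10.22. The second probe set of Rpl7 was also highest in tumour 4, at 8.41, 8.30, 8.49 and 8.75, and that of Rpl14 stayed under the filter at 6.41, 7.16, 6.57 and 6.69. In these 4 genes the mean of the first probe set was 13.39 log2 or more, so the probe sets differed in brightness as well as in tumour order. Probe sets of 1 gene share RNA, labelling and array.

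The 7 members under the filter had ranges between 0.17 and 1.54 log2. Rpl3l, the paralog of Rpl3 known from striated muscle, measured 5.00, 6.02, 4.51 and 4.49 log2, from signals of 17.5, 46.8, 5.79 and 7.17, and was the only member with a range of 1 log2 or more. Rpl39l1, a paralog of Rpl39, measured 5.64, 5.39, 5.38 and 4.66, and Rps4y2 stayed between 6.29 and 6.46. The probe sets of Rpl28 and Rpl30 averaged 6.78 and 6.38, while the other 26 large-subunit core genes and all 12 small-subunit ones passed the filter.

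A further 30 probe sets named several genes, all of them ribosomal protein genes or their copies, and were kept out of the counts above because none can be tied to 1 gene. Their median offsets were -0.27, 0.02, 0.34 and -0.08 log2 in tumours 1 to 4, and 27 of the 30 were lowest in tumour 1 and highest in tumour 3. Rpsa, a small-subunit protein whose symbol falls outside the rule, measured 13.10, 13.38, 13.72 and 13.35. Quantile normalization brought the 30 to -0.01 in tumour 1 and 0.01 in tumour 3.

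Groups of genes that act with the ribosome also had negative offsets in tumour 1, where all expressed genes had -0.10. Several of these groups peaked in tumour 2 and not in tumour 3. Their median levels ran from 10.01 log2 for mitochondrial ribosomal proteins to 12.05 for translation factors. In tumour 1, genes outside the family had -0.12 between 10 and 11 log2, -0.15 between 11 and 12 and -0.21 between 12 and 13. The ribosomal family had offsets of -0.29, 0.01, 0.34 and -0.06 log2. The 30 expressed translation factors had -0.26, 0.12, 0.22 and -0.10, and their common offset took 80.2% of their spread. After quantile normalization that share was 38.8%, and their highest offset was in tumour 2, at 0.08, against 0.05 in tumour 3. The elongation factor Eef1a1, as bright as the ribosomal proteins, measured 13.30, 13.58, 14.01 and 13.63 log2, and Eef2 measured 13.16, 13.58, 13.84 and 13.40. The initiation factor subunits Eif3i and Eif3k, which had the largest SD in this list, were dimmer and about equal in tumours 2 and 3, at 11.53 and 11.57 for Eif3i and at 11.59 and 11.58 for Eif3k.

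Mitochondrial ribosomal proteins, encoded by 73 expressed genes and used by the separate ribosome of mitochondria, had offsets of -0.17, 0.23, 0.13 and -0.14. Tumour 3 was highest in 19 of the 73, where 33.2% of all expressed genes had it highest. Mrps21 and Mrpl38, the most variable by SD in this list, were highest in tumour 2, at 11.02 and 9.70 log2, and lowest in tumour 1, at 10.09 and 8.71. The 37 genes with the symbol of a proteasome subunit, of which Psmc3ip encodes a partner of a subunit and not a subunit, had -0.21, 0.17, 0.14 and -0.08. Psmd11, a subunit of the regulatory particle, measured 10.86, 11.94, 11.58 and 11.58, and Psmb9, a catalytic subunit of the immunoproteasome, measured 11.77, 12.57, 12.67 and 12.24. The 39 ribosome biogenesis genes had -0.12, 0.23, 0.10 and -0.21, so tumour 4 was lowest. Tumour 1 was lowest in 14 of the 39 and tumour 4 in 24, against 4138 and 2874 of the 9403 expressed genes. After quantile normalization tumour 2 was still the highest for all 3 lists, at 0.18, 0.09 and 0.16, while the cytosolic family lay at 0.013 there. Ltv1 and Wdr12, assembly factors of the small and the large subunit, had the largest SD among the biogenesis genes and peaked in different tumours. Ltv1 was highest in tumour 2, at 10.31 log2, and Wdr12 in tumour 3, at 9.79.

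Regulators of ribosomal protein expression shared less of their spread. The 16 expressed genes of that list had offsets of -0.12, 0.12, 0.04 and -0.0029 log2, and their common offset took 9.50% of their spread. Of the 16, 14 lay below the average of the remaining tumours in tumour 1 and 15 above it in tumour 2. Among all 9403 expressed genes, 6042 and 6232 did so. The most variable were Myc and Mycn, with SDs of 0.51 and 0.82 log2 against a median of 0.14 in the list. These 2 genes therefore weighed heavily in the share of 9.50%. Myc, a transcription factor that drives ribosome production, measured 10.64, 11.21, 11.22 and 10.16, so tumour 4 was lowest. Mycn, its relative, measured 9.62, 9.53, 8.21 and 10.14, with tumour 3 lowest. Larp1 measured 11.38, 11.67, 11.83 and 11.67, in an order like that of the family, and Mtor stayed between 9.36 and 9.57. The 23 expressed proliferation genes had a median offset of 0.36 in tumour 2 and of -0.04 in tumour 3, where the ribosomal family stood at 0.01 and 0.34. The mitotic checkpoint kinase Bub1 measured 7.91, 8.97, 8.22 and 7.66 log2, and the cyclin Ccna2 measured 8.94, 9.75, 8.75 and 8.52, both highest in tumour 2.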

How the data were processed

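The deposited table holds linear intensity values, 1 per probe set and tumour, as the authors made them. The software behind them is not given in the sources used here, but dropping the outer 2% at either end left a mean of 500.1 on each of the 4 arrays. Per the labels' protocols, 8 µg of total RNA was primed with oligo-dT and labelled with biotin. The number of arrays limits the precision.

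The log2(value + 16) of each intensity was taken, and arrays were aligned on their medians (shifts of -0.07, 0.05, 0.06 and -0.05). Probe sets naming several genes (436) were left out, and the brightest probe set stood for a gene. Genes at or above the median level of all probe sets were kept. Quantile normalization, values as deposited, pseudocounts of 1 and 64, averaged probe sets, other filters, core members only and leaving out each tumour were alternatives. A robust local regression (statsmodels 0.14.6, span 0.05) gave the curve over other genes. The residual step was tested on simulated data, with planted shifts larger than any residual of an expressed member here. The quantile step was checked on the deposited values. Work was done in Python 3.11.15 with numpy 2.4.6 and pandas 2.3.3.

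Members, lists and rules were chosen with earlier results of these data known. Genes were named by rule: the 5 brightest and 5 dimmest expressed members, the 10 with the largest residual SD, the 5 with the smallest SD, those with a range of 1 log2, all paralogs, genes with discordant probe sets, a set of anchors (Rps18, Rps14, Rps19, Rpl10, Rpl38 and Rps27a matched no single-gene probe set), and the 2 of largest SD in other lists. Rpsa, Eef1a1, Eef2, Larp1, Mtor and Krt18 were chosen after their values were seen, as were the 13 log2 class and the curve. Rpl19, Rpl37a and Rps15, whose start sequences are shown, also fall outside the naming rule.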

Additional observations from a re-analysis of the deposited data

How the results depend on the processing

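Of 130 values recomputed under alternatives, 116 stayed near the reported value and 14 moved, and none changed sign from a value of 0.1 log2 or more. A count or a median SD was taken as moved beyond 1.5 times, a percentage beyond 10 points and a family offset beyond 0.26 log2, the SD of the 4 offsets. That limit for offsets is wide, since those of tumours 2 and 4, at 0.01 and -0.06, are far smaller than it. The count of 116 therefore follows in part from the rule and is no measure of stability. Quantile normalization moved the family offset to -0.027 in tumour 1 and 0.0040 in tumour 3, the median SD to 0.058, the common share to 9.39% and the median SD of translation factors to 0.11. By construction it gives all arrays the same upper end, where members hold 30 of the 100 brightest probe sets. The curve over other genes, which does not use members, moved the offsets to -4.5e-05 and 0.0064, the median SD to 0.062 and the common share to 1.92%. Without a filter on level, which adds the 7 dim members, 1 member had a range of 1 log2, 4 left the family by 0.5 log2 and 1 by 1 log2, and the common share was 56.3%. With each tumour left out in turn, the median SD ran from 0.16 (without tumour 3) to 0.32, the common share from 78.9% to 89.6%, and the offsets from -0.32 to -0.18 in tumour 1, -0.09 to 0.12 in tumour 2, 0.25 to 0.34 in tumour 3 and -0.15 to 0.05 in tumour 4, while the counts of members past a limit stayed at 0. No paired analysis was possible because the samples form 1 group. With 4 arrays and 1 per tumour, no error can be given for a single tumour.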
